A study of Mus musculus with 24 samples.

Results

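*Myc* and 37 genes of ribosome biogenesis, 38 of the 18193 genes that the arrays read with a probe set of their own, were followed through the first stages of T cell development in immunodeficient mice with and without a *TLX1* transgene. The 38 were listed by function, with earlier results of these data known, as *Myc*, the transcription factor that drives growth, and nucleolar genes from RNA polymerase I to the factors that assemble the small and the large ribosomal subunit. For each gene the probe set with the highest mean signal over all 24 arrays was used, and older gene symbols were accepted. All 38 passed the filter on dim probe sets, which kept the brightest 60%. Single signals of the 38 lay between 46.4 and 8079 on a linear scale on which the 2% trimmed mean of every array was 150.

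The arrays measured sorted CD4- CD8- (double-negative, DN) thymocytes of *IgHμ-TLX1Tg Prkdc Scid/Scid* mice, called TLX1, and of *Prkdc Scid/Scid* mice, called control. By the labels all were 6 to 8 weeks old and of the outbred ICR stock. Each genotype gave 4 pools, each pool held 2 to 5 mice of 1 sex, and each pool was sorted by CD44 and CD25 into DN1, DN2 and DN3, with 1 array per stage. The study's list of these pools gives ages that start under 6 weeks in TLX1 pools 1 and 2 and control pool 2. Its methods describe the transgenic parents as bred onto CD1. Both genotypes carry the *Scid* mutation of *Prkdc*, which blocks the joining of antigen receptor genes and with it the passage beyond DN3. The transgene, human *TLX1* (*HOX11*), is driven by an immunoglobulin heavy chain control region, which is used above all by B cells. The mouse *Tlx1* probe set did not separate the genotypes, at 4.51 to 11.4 in the 12 TLX1 arrays and 2.75 to 17.3 in the 12 control arrays, and whether it reads the human transgene was not tested.

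Ribosomes are built in the nucleolus, where RNA polymerase I transcribes the ribosomal RNA precursor, small nucleolar ribonucleoproteins (snoRNPs) guide its chemical modification, and large processing complexes cut and fold it into the subunits. *Myc* encodes a basic helix-loop-helix leucine zipper protein that pairs with Max, binds the E-box CACGTG and activates many of these genes in growing cells. In the thymus, the DN2 and DN3 stages are the ones at which precursors multiply and commit to the T lineage under Notch and IL-7 signals.

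Promoter windows from RefSeq (GRCm38.p6, 250 bases before to 50 after each annotated start) were available for 31 of the 38 genes. CACGTG, which reads the same on both strands, occurred in the windows of 7 of these 31 genes (22.6%), against 8.09% of the 27025 genes with a window. The 7 stretches are shown because they hold the letters of the element that Myc and Max are known to bind. Each is 30 bases long, read 5′ to 3′ on the strand of its gene, with CACGTG in capitals. A match is a description of the letters and not of binding, and no match says only that these letters are not in the window.
*Mybbp1a*: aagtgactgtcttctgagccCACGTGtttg
*Utp20*: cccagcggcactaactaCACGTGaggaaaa
*Wdr43*: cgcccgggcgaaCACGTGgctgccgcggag
*Pno1*: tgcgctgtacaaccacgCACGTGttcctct
*Pes1*: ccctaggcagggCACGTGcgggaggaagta
*Nop2*: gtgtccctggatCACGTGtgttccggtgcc
*Grwd1*: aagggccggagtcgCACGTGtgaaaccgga

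The stretch of *Mybbp1a* lies at chr11:72441347-72441376 on the plus strand and that of *Utp20* at chr10:88826765-88826794 on the minus strand. Those of *Wdr43* (chr17:71616220-71616249), *Pes1* (chr11:3963965-3963994) and *Nop2* (chr6:125131811-125131840) are on the plus strand, and those of *Pno1* (chr11:17211540-17211569) and *Grwd1* (chr7:45830740-45830769) on the minus strand. Counted from 1 at the annotated start, with the base before it as -1, the first base of the motif had position 41 in *Mybbp1a*, 38 in *Utp20* and *Pno1*, 35 in *Grwd1*, 18 in *Wdr43*, 3 in *Pes1* and -60 in *Nop2*.

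The sort genes followed the labels, with *Cd44* highest at DN1 and *Il2ra*, which encodes CD25, high at DN2 and DN3. Correlations between replicate arrays were 0.889 to 0.976. Markers of NK and myeloid cells were highest at DN1, and those of stromal and B lineage cells were not. The summed signal of 9 NK cell markers was 19563 to 31713 in TLX1 DN1 pools and 14852 to 36840 in control DN1 pools. At DN2 it was 4694 to 5403 in TLX1 pools and 4350 to 5770 in control pools, with 3 of the 9 still above the median of the array. The summed signal of 12 myeloid markers was 4906 to 42449 over the DN1 arrays, and that of 9 B lineage markers was 304 to 1206 over all 24 arrays. The summed signal of 10 stromal markers was 412 to 539.6 in TLX1 DN1 pools and 382 to 479 in control DN1 pools, and at DN2 it was 1829 to 2163 in TLX1 pools and 1413 to 2418 in control pools. Control pool 3 and TLX1 pool 2, which the study lists with the largest shares of cells outside the sort gates, stood apart at DN1. Their NK sums of 14852 and 19563 were the lowest of the 8 (26494 to 36840 in the others), and their summed signals of 19 proliferation genes, 45466 and 40979, were the highest (15789 to 26058 in the others). The DN2 array of control pool 3 had an RNA index (the log2 signal of the 3' less that of the 5' probe sets for *Actb* and *Gapdh*, averaged, higher in more degraded RNA) of 0.99, against 0.12 to 0.44 in the other DN2 arrays.

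*Myc* and most of the ribosome biogenesis genes were higher at DN2 than at DN1, in TLX1 and control thymocytes alike. In a limma fit that took all 24 arrays, blocked by pool and averaged over the genotypes, 31 of the 38 were higher at DN2 and 0 were lower at an adjusted p under 0.05 (8 pools). Among all 27022 probe sets tested, 28.5% were higher and 31.2% lower, and among the 14283 at least as bright as the dimmest of the 38, 38.7% were higher and 30.4% lower. The change was above 0 in 36 of the 38 and in 46.1% of all probe sets, with a median log2 change of 0.46 in the 38 and of -0.058 over all probe sets. Of the 38, 18 were higher at DN2 than at DN1 in each of the 8 pools, as were 17.1% of all probe sets. In bulk samples, fewer cells of a type and less RNA per cell cannot be told apart. The 9 NK cell markers tested were all lower at DN2 (median log2 change -7.20), as were all 11 myeloid markers (-3.32). Of the 5 stromal markers tested, 2 were higher at DN2 and 1 lower (median 0.21), beside the higher summed signal given above. The part of these cells in the result was not tested.

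*Myc* itself (chr15:61985341-61990361, GRCm38.p6) had signals of 564, 873, 525 and 611 in TLX1 DN1 pools 1 to 4, and of 540.2, 653, 1013 and 616 in control DN1 pools 1 to 4. Its DN2 signals were 1016, 1128, 1062 and 1290 in TLX1 pools and 1117, 785, 1053 and 1428 in control pools. Its DN3 signals were 975, 1021, 912 and 1041 in TLX1 pools and 1011, 702, 1275 and 1564 in control pools. All 4 TLX1 signals at DN2 lay above all 4 at DN1, while the control groups overlapped through pool 3, high at DN1, and pool 2, low at DN2. *Myc* was 1.67-fold higher at DN2 than at DN1 (log2 change 0.74, SE 0.13, limma adjusted p = 0.000244) and higher in 8 of 8 pools. From DN2 to DN3 its log2 change was -0.079 (SE 0.13, limma adjusted p = 0.731), lower in 6 of 8 pools, and at DN3 it was above DN1 by 0.66.

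The 4 other genes with the largest called changes were all low at DN1 in most pools. *Tcof1*, which encodes treacle, a nucleolar protein needed for ribosomal RNA transcription, had signals of 247, 284, 209 and 215 in TLX1 DN1 pools and 197, 222, 398 and 207 in control DN1 pools. At DN2 it had 813, 808, 758 and 775 in TLX1 pools and 732, 904, 552 and 584 in control pools, and at DN3 it had 693 to 888 in TLX1 pools and 605 to 764 in control pools. Every DN2 and DN3 signal lay above every DN1 signal, and *Tcof1* was 3.04-fold higher at DN2 than at DN1 (log2 change 1.60, SE 0.14, limma adjusted p = 2.62e-07).

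*Wdr12*, whose product joins Pes1 and Bop1 in the PeBoW complex of the large subunit, had 299.9, 663, 245 and 201 in TLX1 DN1 pools and 241, 245, 799 and 185 in control DN1 pools. At DN2 it had 832, 957, 875 and 819.5 in TLX1 pools and 869, 829, 944 and 734 in control pools. TLX1 pool 2 and control pool 3 were the high DN1 arrays, and control pool 3 alone reached the DN2 range. The log2 change of *Wdr12* was 1.46 (SE 0.20, limma adjusted p = 2.17e-05, 8 of 8 pools).

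*Utp20*, which encodes a large component of the small subunit processome, had 244, 317, 259 and 211 in TLX1 DN1 pools and 231, 253, 304 and 247 in control DN1 pools. At DN2 its signals were 453, 451, 453 and 445 in TLX1 pools and 439, 478, 400.1 and 429.6 in control pools, so that the stages did not overlap. Its log2 change was 0.79 (SE 0.081, limma adjusted p = 1.19e-06). *Grwd1*, which encodes a histone-binding WD repeat protein whose yeast relative is a chaperone of a large subunit protein, had 186, 315, 279 and 174 in TLX1 DN1 pools and 187, 231, 429 and 187 in control DN1 pools. At DN2 *Grwd1* had 396, 391, 395 and 392 in TLX1 pools and 453, 352, 436 and 349 in control pools. At DN3 it had 293, 402, 301 and 297 in TLX1 pools and 303, 311, 437 and 259 in control pools, below DN2 in 6 of 8 pools, with no call. Without control pool 3 the DN1 and DN2 signals of *Grwd1* did not overlap, and its log2 change over all pools was 0.73 (SE 0.12, limma adjusted p = 0.000135).

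**Figure D1:**
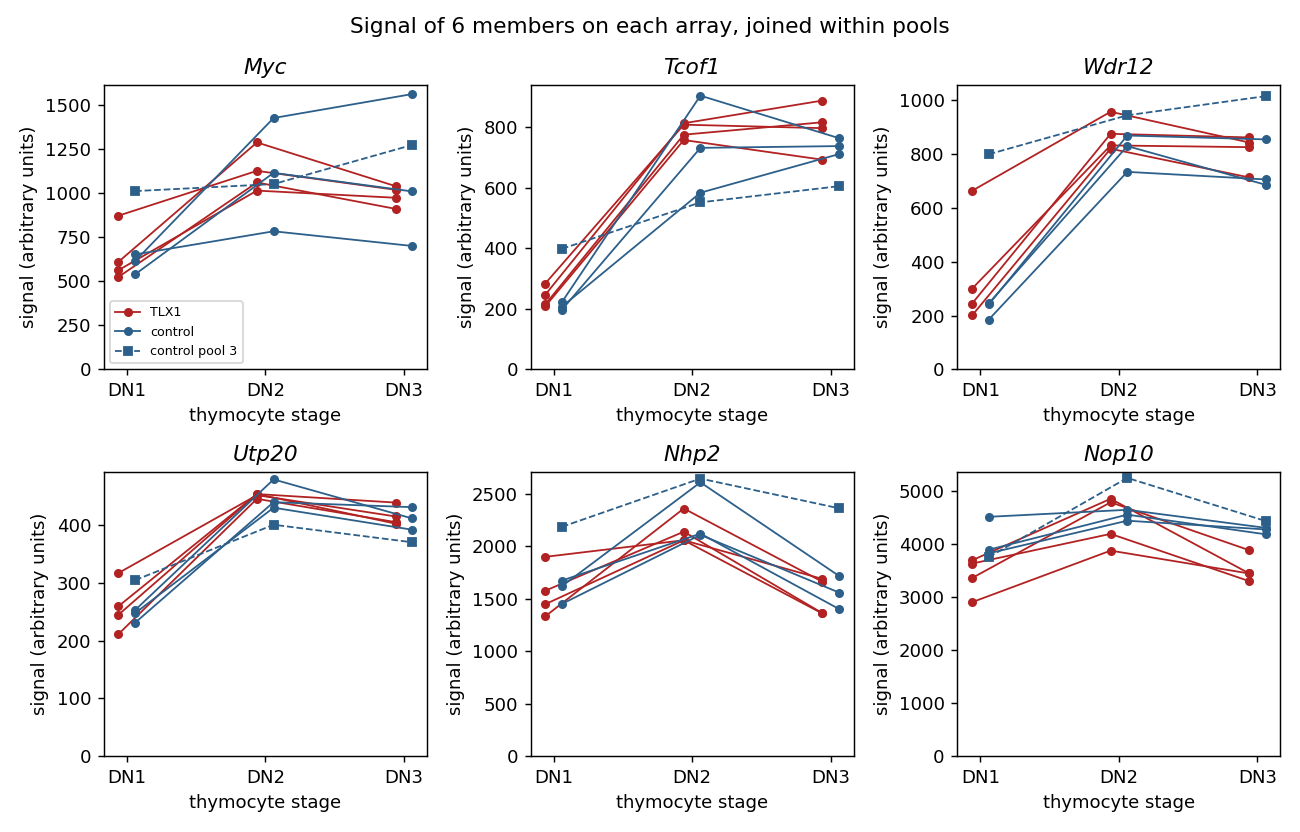
Signal (arbitrary units, linear axis from 0) of 6 genes at DN1, DN2 and DN3, with lines that join the arrays of 1 pool, TLX1 pools in red and control pools in blue (control pool 3 as dashed line with squares). *Tcof1*, *Utp20* and *Wdr12* were low at DN1 in most pools and stayed up at DN3, whereas *Nhp2* and *Nop10* were lower again at DN3, and control pool 3 was already the highest at DN1 for *Myc*, *Tcof1*, *Wdr12* and *Nhp2*.

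Genes called higher at DN2 were found at each step of ribosome production. Of the 3 RNA polymerase I genes, *Tcof1* and *Polr1b*, the second largest subunit (log2 change 0.66, SE 0.18, limma adjusted p = 0.00481), were higher at DN2, while *Polr1a*, the largest subunit, had 0.26 (limma adjusted p = 0.131). Of the 5 abundant nucleolar proteins, 4 were higher. They were *Gnl3* (nucleostemin, log2 change 0.73), *Mybbp1a* (0.52), *Ncl* (nucleolin, 0.46) and *Npm1* (nucleophosmin, 0.35), and the exception was the RNA helicase gene *Ddx21* (-0.11, limma adjusted p = 0.298).

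Of the 5 genes grouped with box C/D snoRNPs, *Nop56* (log2 change 0.72), *Nop58* (0.67), the methyltransferase gene *Fbl* (0.65) and the chaperone gene *Nolc1* (0.42) were higher at DN2. *Rrp9*, which binds the U3 snoRNA, had a log2 change of 0.053 (limma adjusted p = 0.768). All 4 genes of the box H/ACA core, which makes pseudouridine, were higher, with log2 changes of 0.70 for *Dkc1* (dyskerin, the pseudouridine synthase), 0.70 for *Gar1*, 0.47 for *Nhp2* and 0.31 for *Nop10*.

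Among small subunit factors 6 of 7 were higher at DN2 (median log2 change 0.28), led by *Utp20* and *Noc4l* (0.71), with *Pno1* at 0.46 and *Wdr43*, *Nop14* and *Heatr1* at 0.22 to 0.28. *Rrp12* had 0.16 (limma adjusted p = 0.391). Among large subunit factors 10 of 13 were higher (median 0.42). Below *Wdr12* and *Grwd1*, these were *Nop16* (0.57), *Noc2l* (0.48), *Rrs1* (0.45), *Nop2* (0.44), *Pes1* (0.42), *Rrp1b* (0.42), *Ebna1bp2* (0.29) and *Nip7* (0.22). *Wdr74* (0.30, limma adjusted p = 0.0531), *Ftsj3* (0.19, limma adjusted p = 0.409) and *Bop1* (-0.075, limma adjusted p = 0.532) did not pass. The partners of the PeBoW complex thus had log2 changes of 1.46 (*Wdr12*), 0.42 (*Pes1*) and -0.075 (*Bop1*).

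**Figure D2:**
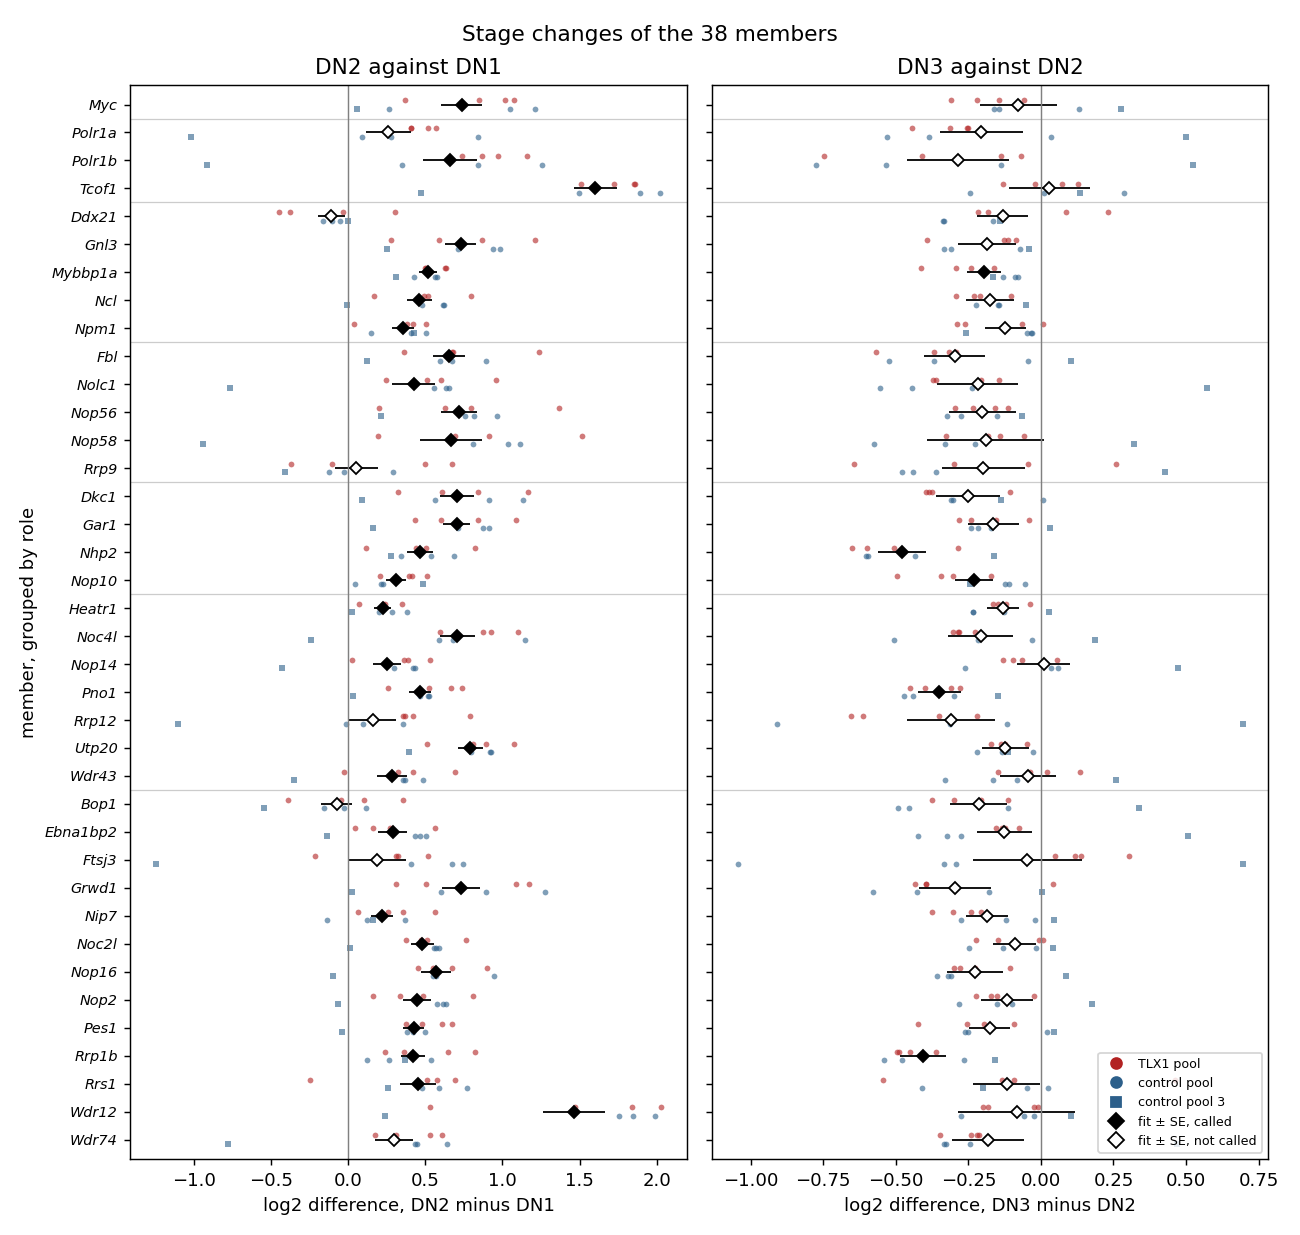
Log2 change of each of the 38 genes, DN2 minus DN1 (left) and DN3 minus DN2 (right), as small circles for single pools (TLX1 red, control blue, control pool 3 as a blue square) and as a black diamond with its SE for the fit over 8 pools, filled where the limma adjusted p was under 0.05. At DN2 against DN1, 31 diamonds are filled, all above 0, and at DN3 against DN2, 5 are filled, all below 0.

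The genotypes gave similar counts when taken apart. In TLX1 pools 28 of the 38 were higher at DN2 than at DN1 (22.8% of all probe sets were), with a median log2 change of 0.52. In control pools 24 were higher (21.9% of all probe sets), with a median of 0.41. The difference between the genotypes in this change was called for 0 of the 38 and for 0% of all 27022 probe sets (limma interaction, smallest unadjusted p among the 38 of 0.0506).

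From DN2 to DN3 the direction turned and the changes were small. The log2 change was above 0 for 2 of the 38 and for 61.2% of all probe sets, with a median of -0.19 in the 38 and of 0.075 over all probe sets. At an adjusted p under 0.05, 5 were lower and 0 higher at DN3, where 4.07% of all probe sets were lower and 6.93% higher, and 14 were lower at an unadjusted p under 0.05, against 10.1% of all probe sets. In each of the 8 pools, 9 of the 38 were lower, as were 6.75% of all probe sets. The count of 5 depended on control pool 3. Without it 16 of the 38 and 1925 of all 27022 probe sets were lower, against 1099 probe sets over all 8 pools. Without any 1 of the other 7 pools, 3 of the 38 and 572 to 740 probe sets were. Without both control pool 3 and TLX1 pool 2, 10 of the 38 and 1972 probe sets were. By genotype, 2 were lower in TLX1 pools (1.18% of all probe sets) and 0 in control pools (0.788%, and at an unadjusted p under 0.05, 3 of the 38 and 5.28% of all probe sets). The genotypes' difference in this change was called for 0 of the 38 (limma interaction, smallest unadjusted p 0.16).

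The 5 called genes belong to different steps, and each was lower at DN3 than at DN2 in 8 of 8 pools. *Nhp2*, the H/ACA core protein, had 2057, 2057, 2138 and 2359 in TLX1 DN2 pools and 2608, 2120.1, 2644 and 2108 in control DN2 pools. At DN3 it had 1359, 1689, 1363 and 1662 in TLX1 pools and 1717, 1402, 2362 and 1559 in control pools. The DN3 signals lay below all DN2 signals except in control pool 3, and the log2 change was -0.48 (SE 0.083, limma adjusted p = 0.00303).

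*Rrp1b*, which encodes a nucleolar protein related to the Rrp1 factor of yeast, had 643, 737, 686 and 674 in TLX1 DN2 pools and 742, 529.8, 608 and 612 in control DN2 pools. At DN3 it had 471, 522, 535 and 480.0 in TLX1 pools and 509.9, 441, 545 and 439 in control pools. The stages did not overlap in TLX1 pools and did in control pools, and the log2 change was -0.40 (SE 0.079, limma adjusted p = 0.00616). The 2 other probe sets of *Rrp1b* did not share its earlier rise, with log2 changes of 0.057 and 0.066 at DN2 against DN1.

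*Pno1*, which in yeast acts with the nuclease that makes the last cut of small subunit RNA, had 873, 899, 844 and 819 in TLX1 DN2 pools and 859, 755, 943 and 717 in control DN2 pools. At DN3 it had 639, 741, 641 and 660.1 in TLX1 pools and 620.1, 557, 851 and 583 in control pools. Here too the TLX1 stages did not overlap, and control pool 3 stood highest at DN3, with a log2 change over all pools of -0.35 (SE 0.073, limma adjusted p = 0.00899). *Nhp2*, *Rrp1b* and *Pno1* were called lower under all 18 settings of the analysis.

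*Nop10*, the smallest H/ACA protein, had 3879, 4856, 4194 and 4790.3 in TLX1 DN2 pools and 4557, 4648, 5250.2 and 4443 in control DN2 pools. At DN3 it had 3447, 3448, 3303 and 3887 in TLX1 pools and 4186, 4308, 4436 and 4278 in control pools. Both genotypes were lower at DN3, TLX1 pools with overlap between the stages at 1 array, and the log2 change was -0.23 (SE 0.066, limma adjusted p = 0.0391). *Mybbp1a*, which encodes a nucleolar Myb-binding protein, had 1652, 2024, 1721 and 1512 in TLX1 DN2 pools and 1888, 1896, 1987 and 1538 in control DN2 pools. At DN3 it had 1399, 1522, 1405 and 1353 in TLX1 pools and 1786, 1733, 1772 and 1447 in control pools, a log2 change of -0.20 (SE 0.057, limma adjusted p = 0.0425). The *Nop10* and *Mybbp1a* calls were lost without any 1 of the 7 pools other than control pool 3, with limma adjusted p of 0.0617 to 0.11 and 0.0617 to 0.117.

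Set against DN1, 20 of the 38 were higher at DN3 (30.1% of all probe sets were) and 2 were lower (25% of all probe sets). The change was above 0 for 33 of the 38 and 53% of all probe sets, with a median of 0.27 in the 38 and of 0.038 over all probe sets. The 2 lower genes were *Bop1* (-0.29) and *Ddx21* (-0.24), the 2 genes with a negative change at DN2. These calls held under 12 (*Bop1*) and 10 (*Ddx21*) of 18 settings and under neither centring nor the RNA index as a covariate, and with centring *Bop1* had 0.27 and *Ddx21* 0.23 at DN2 against DN1, the second of them called higher. A second probe set of each was lower already at DN2, at -0.59 for *Bop1* (limma adjusted p = 0.00056) and -0.58 for *Ddx21* (limma adjusted p = 0.000137).

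By mean level over the 8 pools, 31 of the 38 genes were highest at DN2 and lowest at DN1. *Nhp2*, *Rrp9* and *Rrp12* were highest at DN2 and lowest at DN3, *Tcof1* and *Nop14* were highest at DN3 and lowest at DN1, and *Bop1* and *Ddx21* were highest at DN1 and lowest at DN3. The order is that of the means, and stages with no call above were not separated by the test. The share of all probe sets with each order was not counted. In 8 genes (*Mybbp1a*, *Gnl3*, *Nop56*, *Nhp2*, *Nop10*, *Utp20*, *Pno1* and *Rrp1b*) DN2 was the highest stage in every one of the 8 pools. That share was not counted over all probe sets either. It can be at most the 6.75% of them that were lower at DN3 than at DN2 in all 8 pools. All 7 genes with CACGTG in the promoter window were higher at DN2 than at DN1, as were 19 of the 24 genes with a window that lacks it and 5 of the 7 without a window.

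The pools differed most at DN1. Over the 38 genes the median SD between pools of a genotype, on the log2 scale, came to 0.31 at DN1, 0.20 at DN2 and 0.21 at DN3, and over all probe sets to 0.41, 0.34 and 0.32. The SD was larger at DN1 than at DN2 in 28 of the 38, as it was in 59.2% of all probe sets. At DN1, control pool 3 had the highest signal of the 8 pools for 26 of the 38 genes, and its median log2 signal over the 38 was 9.34. In the other control DN1 arrays this median was 8.80 to 8.85, in TLX1 pool 2 it was 9.24, and in the other TLX1 DN1 arrays it was 8.78 to 8.89. These are the pools with the fewest NK signals and the most proliferation signals at DN1 given above, and the part of those cells in the levels was not tested.

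Changes within single pools followed the same split. The median log2 change of the 38 genes from DN1 to DN2 was 0.51, 0.32, 0.51 and 0.77 in TLX1 pools 1 to 4, and 0.56, 0.56, 0.017 and 0.56 in control pools 1 to 4. In control pool 3, 20 genes were higher and 18 lower at DN2, and for 30 of the 38 it showed the lowest change of the 8 pools. From DN2 to DN3 the medians were -0.21, -0.17, -0.22 and -0.22 in TLX1 pools and -0.29, -0.23, 0.066 and -0.24 in control pools, and control pool 3 had the highest change for 29 genes. At DN2 its array had the lowest signal of the 8 for 14 genes, the highest for 7 genes, and the highest RNA index.

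**Figure D3:**
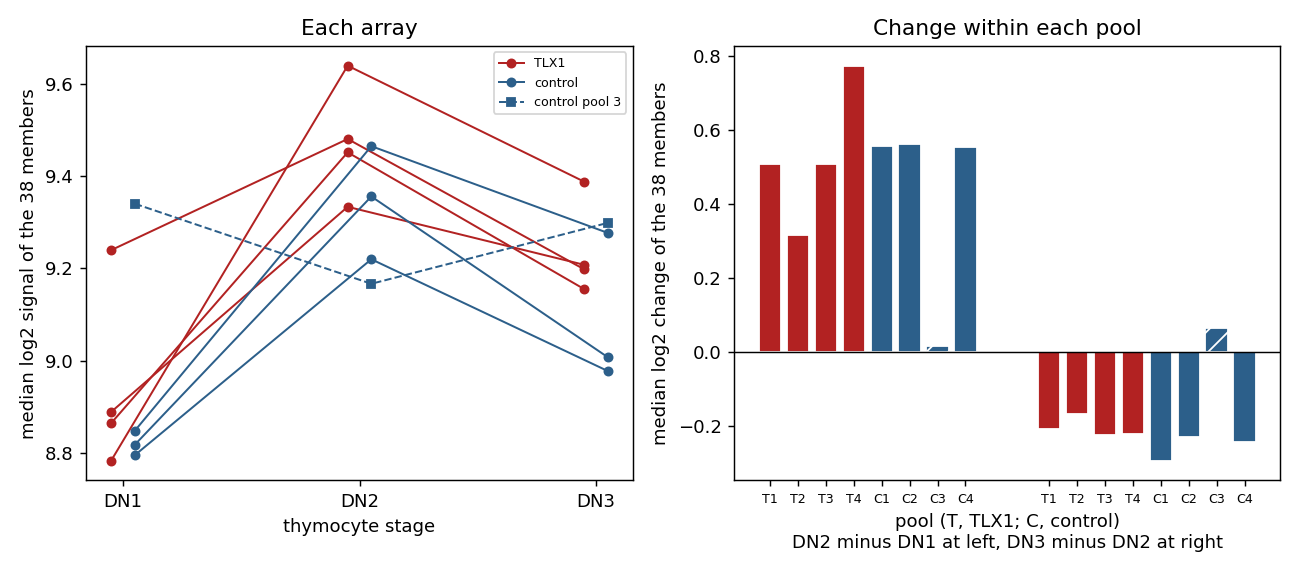
Left, median log2 signal of the 38 genes on each array by stage, with lines that join the arrays of 1 pool (TLX1 red, control blue, control pool 3 dashed). Right, median log2 change of the 38 genes in each pool, DN2 minus DN1 and DN3 minus DN2, with control pool 3 hatched. Control pool 3 began at 9.34 at DN1 and had a median change to DN2 of 0.017, against 0.32 to 0.77 in the other 7 pools.

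Genes that work beside the 38 were counted from lists of the same pathways. Of 76 other ribosome biogenesis genes, 48 were higher at DN2 than at DN1 and 1 (*Nol8*, log2 change -0.41) was lower, with a median of 0.26, where 28.5% of all probe sets were higher and 31.2% lower. Under median centring 72 were higher and 0 lower. The largest rises were those of *Naf1* (1.26), an H/ACA assembly factor, and *Rrp15* (0.97). From DN2 to DN3 1 of the 76 was higher (*Mdn1*, 0.23) and 4 were lower (24 under centring), with a median of -0.11. Of all probe sets, 6.93% were higher and 4.07% lower. Of 13 other RNA polymerase I genes, 9 were higher at DN2, with *Rrn3*, the initiation factor, at 0.69 and *Polr1f* at 0.48, while *Ubtf*, which binds ribosomal DNA, had -0.037 and did not pass. Under centring all 13, *Ubtf* with them, were higher. From DN2 to DN3 *Taf1a* (0.50) was called higher and *Polr1c* (-0.24) lower. The median change of the 13 was 0.057 under quantile normalization, with 5 negative, and -0.15 under centring, with 11 negative.

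The partners and antagonists of Myc moved in both directions, as did all probe sets at DN2 against DN1 (28.5% higher and 31.2% lower). Of 11 genes of the network, 3 were higher at DN2 than at DN1, *Mxi1* (0.93), *Mga* (0.50) and *Zbtb17* (0.46). The 5 lower ones were *Mxd1* (-2.06), *Mxd4* (-0.85) and *Mnt* (-0.27), and *Mlx* (-0.42) and *Mlxip* (-0.28) of the parallel Mlx branch. *Max* (-0.15) and *Mycn* (0.050) did not pass. With each array centred on its median, only *Mxd1* and *Mxd4* were lower and *Mnt* and *Mlxip* turned sign. From DN2 to DN3, *Mxd4* (0.60), *Mga* (0.39) and *Mlxip* (0.28) were higher, where 6.93% of all probe sets were. Of these genes, *Mxd4* was also called under centring (0.44) and *Mga* and *Mlxip* were not.

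Of 18 other genes known as Myc targets, 14 were higher at DN2 than at DN1 (median log2 change 0.49), with *Tfrc*, the transferrin receptor, at 1.22 and *Cdk4* at 1.19. Of all probe sets, 28.5% were higher and 31.2% lower. Among the 18, *Hk2* (-0.69) and *Ccnd2* (-0.55) were lower, although not under median centring. From DN2 to DN3 8 of the 18 were lower (3 under quantile normalization and 13 under centring) and 0 higher (median -0.27). Of all probe sets, 4.07% were lower and 6.93% higher. The 8 included *Odc1* and *Srm* (-0.49) of polyamine synthesis and *Hk2* (-0.81). All 19 proliferation genes were higher at DN2 than at DN1 (median 0.97), and from DN2 to DN3 all 19 changes were negative (median -0.46), of which 1 passed, *Mki67* (-0.51).

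The ribosomal proteins themselves did not follow. Of 41 cytosolic ribosomal protein genes, 3 were higher and 1 lower at DN2 than at DN1, against 28.5% and 31.2% of all probe sets. Their median log2 change was -0.025, and 0 were called from DN2 to DN3 (median -0.057). Under median centring, which moved the median of all probe sets by 0.34 at DN2 against DN1, 35 of the 41 were higher (median 0.32), and under quantile normalization the median was 0.0096. The median change of the 38 was 0.41 under quantile normalization, with 36 above 0, and 0.80 under centring, with all 38 above 0.

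**Figure D4:**
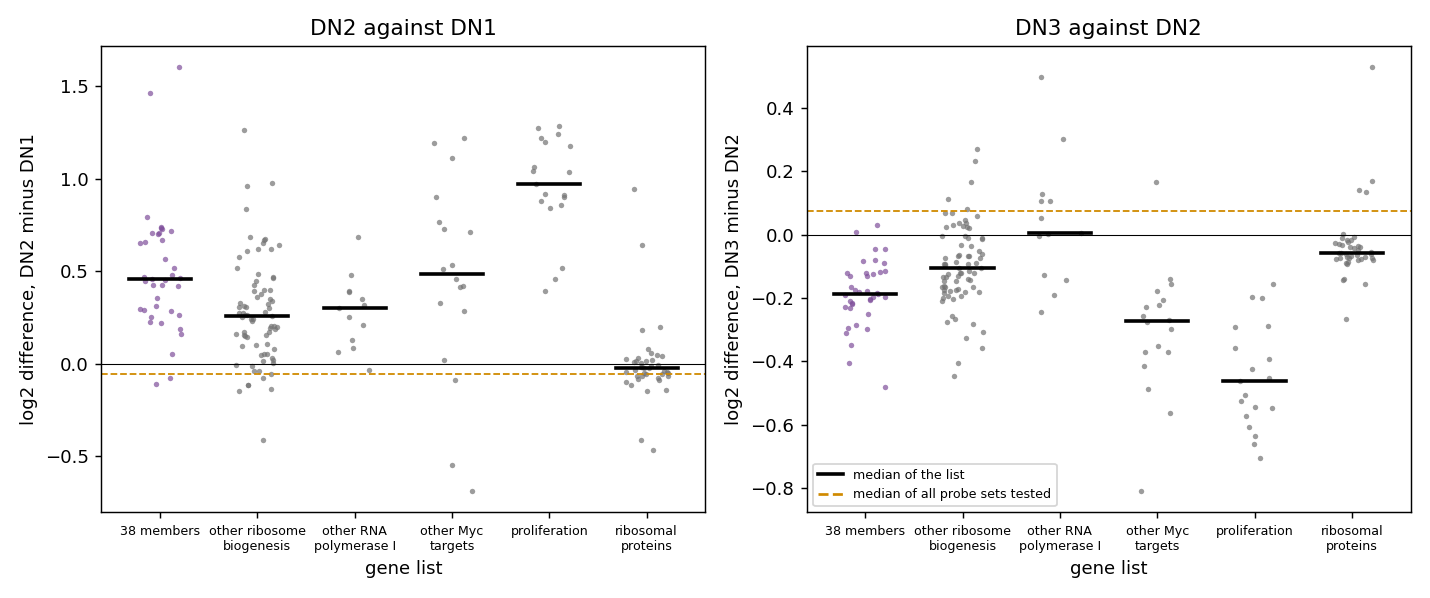
Log2 change of single genes (points) in the 38 genes and in the lists of neighbouring pathways, DN2 minus DN1 and DN3 minus DN2, with a black bar at the median of each list and a dashed line at the median of all probe sets. The bars of the 38 genes lie at 0.46 and -0.19, those of the proliferation genes at 0.97 and -0.46, and those of the ribosomal protein genes at -0.025 and -0.057.

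Between the genotypes no gene of the 38 passed the test. TLX1 against control gave 0 calls among the 38 at DN1, DN2 and DN3, where 0.0037%, 0.0037% and 0.0185% of all probe sets were called higher and 0% lower (limma over 8 arrays per stage, lowest adjusted p among the 38 of 0.795). At an unadjusted p under 0.05, 0 of the 38 were found at DN1 (1.03% of all probe sets higher and 0.699% lower), 1 at DN2 (1.45% and 2.07%) and 3 at DN3 (4.24% and 1.79%). The median log2 difference of the 38 was -0.064 at DN1, with 8 above 0, where 51.5% of all probe sets were. At DN2 it was 0.052, with 23 above 0 (47% of all), and at DN3 it was 0.0083, with 20 above 0 (51.6% of all). The DN1 median was 0.076 without control pool 3, with 25 above 0, and -0.35 with the RNA index as a covariate, with 0 above 0. The DN3 median was 0.099 without control pool 3. With the index it was 0.11, at a stage where the index did not overlap between the genotypes. For *Myc* the difference was -0.12 at DN1 (95% interval -0.70 to 0.46), 0.063 at DN2 (-0.39 to 0.51) and -0.15 at DN3 (-0.69 to 0.40). The study reports by another method, qRT-PCR normalized to beta-actin, that *c-myc* was higher in TLX1 than in control thymocytes. Its text does not name the stage, and why the methods differ was not tested.

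The gene with the smallest unadjusted p at DN2 was *Rrp12*, whose yeast relative is an export factor of both subunits. It had 98.9, 119.8, 106.8 and 137 in TLX1 pools and 87.2, 68.1, 50.9 and 99.1 in control pools, which overlapped by 1 array. The log2 difference was 0.63 (SE 0.23, 95% interval 0.11 to 1.16), with a limma unadjusted p of 0.023. It was 0.40 with the RNA index as a covariate, and its lowest control value came from pool 3, whose index was the highest. *Rrp12* was the 1 gene of the 38 that met the thresholds of the study's methods, on the unadjusted p and the fold, at any stage, by the methods' t-test and by limma, and after Benjamini-Hochberg adjustment of that test 0 did. Those thresholds were met at DN2 by 1.46% of all probe sets in the t-test and by 2.51% in limma. *Nolc1* came next at DN2, with 647, 747, 702 and 880 in TLX1 pools and 597, 612, 440.4 and 696 in control pools (log2 difference 0.35).

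At DN3, 3 genes did not overlap between the genotypes. *Polr1b* had 98.5, 111, 116 and 119.8 in TLX1 pools and 88.9, 88.4, 94.0 and 89.1 in control pools (log2 difference 0.30, 95% interval 0.028 to 0.58). *Nop58* had 1041, 983, 1109 and 934 in TLX1 pools and 892, 879, 720.3 and 757 in control pools (0.33, 95% interval 0.024 to 0.63). TLX1 pools lay above all control pools in 2.64% of all probe sets at DN3, and below all of them in 1.25%.

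*Nop10* was the third, with the DN3 signals given above all lower in TLX1 pools (log2 difference -0.29, 95% interval -0.56 to -0.027). At DN1 *Nop10* did not overlap either, with 2906, 3696, 3634 and 3362 in TLX1 pools and 3896, 4516, 3755 and 3827 in control pools (log2 difference -0.24), as did 0.529% of all probe sets in that direction. *Npm1* had differences of -0.20, -0.24 and -0.30 at DN1, DN2 and DN3, and *Noc2l* had -0.20 at DN1. *Npm1* had 4742, 5787, 4412 and 5613 in TLX1 DN1 pools and 5019.8, 6554, 6008 and 6048 in control DN1 pools, with overlap. *Noc2l*, a large subunit factor, had 283, 326, 301 and 312 in TLX1 DN1 pools and 279, 324, 430.0 and 382 in control DN1 pools, also with overlap.

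The RNA index moved with the genotype at DN3. It was 0.10 to 0.34 in TLX1 DN3 pools and 0.50 to 0.57 in control DN3 pools (exact permutation p = 0.0286, two-sided, the smallest that 4 against 4 allow), and the exact p was 0.0571 at DN2 and 0.0857 at DN1. With the index as a covariate the *Nop10* difference at DN3 was -0.016, that of *Nop58* 0.16 and that of *Polr1b* 0.54. As the index did not overlap between the genotypes at DN3, that fit cannot tell index and genotype apart. Ribosomal protein genes had negative differences in 38, 40 and 39 of 41 at DN1, DN2 and DN3, none of them called, with medians of -0.21, -0.19 and -0.32, and the part of RNA quality in these was not tested. Under quantile normalization those medians were -0.014, -0.023 and 0.0034, and *Nop10* and *Npm1* kept their sign with smaller differences (-0.12 for *Nop10* at DN3 and -0.061 for *Npm1* at DN2).

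**Figure D5:**
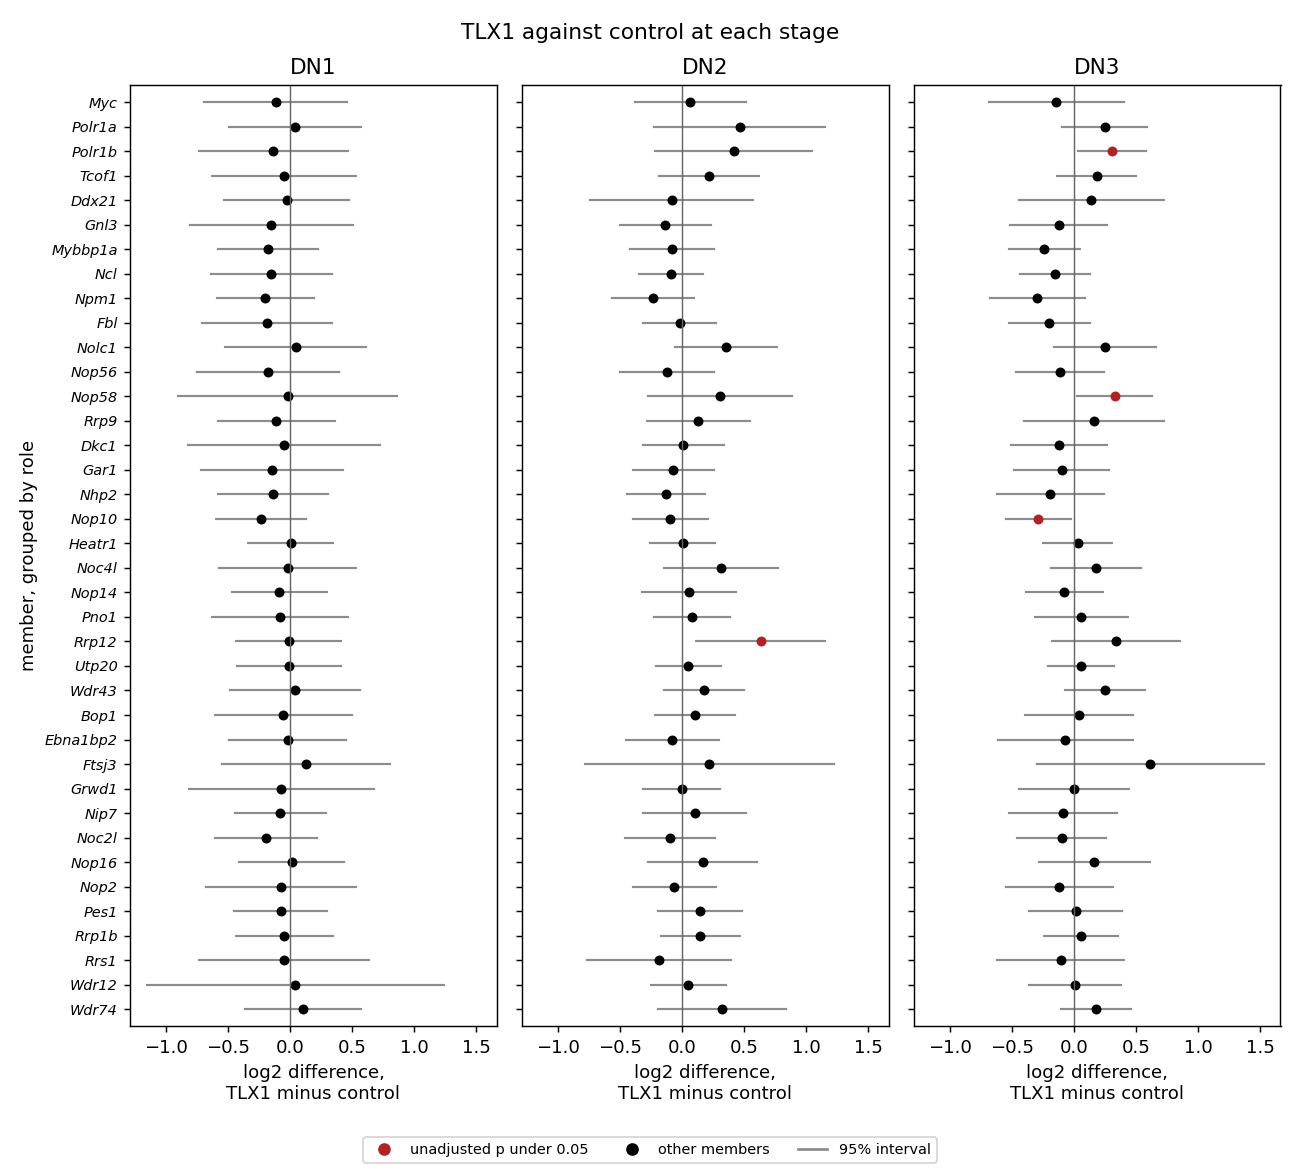
Log2 difference, TLX1 minus control, of each of the 38 genes at DN1, DN2 and DN3, as points with the 95% interval of the limma fit (4 pools each), in red where the unadjusted p was under 0.05. The red points are *Rrp12* at DN2 and *Polr1b*, *Nop58* and *Nop10* at DN3, and none of the 38 passed the adjusted test.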

How the data were processed

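The authors made the intensity values with MAS5 in the Affymetrix Expression Console and deposited them on a linear scale. Signals under 1 were set to 1 before log2. Of 45037 probe sets other than array controls (34945 match 1 gene, 932 several and 9160 none), the 60% with the highest mean log2 signal (27022, geometric mean at least 9.02) were tested in R 4.3.3 with limma 3.58.1, with Benjamini-Hochberg adjustment over all of them, and an adjusted p under 0.05 is a call. Stage changes were fitted over 24 arrays blocked by pool, genotype differences over the 8 arrays of a stage, and their difference as an interaction. Pools are the replicates of all SDs and SEs. Alternatives to the scaling, filter, floor, probe set, block, covariates, weights and pools were run.

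The members and lists were chosen with earlier results of these data known. Single values are given for *Myc*, for the 5 members with the largest called change at DN2 against DN1 and at DN3 against DN2, and for the 3 with the smallest p in each genotype comparison. Of a list, the 2 largest called changes in each direction are named; other genes named were chosen after their values were seen. On simulated arrays, 96% of 100 probe sets changed by a log2 of 2 and 74% of 100 changed by 1 were recovered for DN2 against DN1, and 86% and 33% for TLX1 against control at DN2. The changed probe sets were drawn from the brighter ones only. The simulated noise was independent between arrays, with no effect shared within a pool.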

Additional observations from a re-analysis of the deposited data

Results flagged for a closer look

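A gap test for a lone high or low array was run on 102 groups of 4 arrays (17 values in 6 groups each), where chance alone marks about 1 group in 20. It marked 6. The median log2 signal of the 38 genes was 9.34 in control DN1 pool 3, against 8.80 to 8.85 in the other control DN1 pools. *Grwd1* was at log2 8.65 in TLX1 DN3 pool 2 (signal 402, others 293 to 301), *Nolc1* at 9.30 in TLX1 DN1 pool 2 (631, others 452 to 462) and *Noc2l* at 9.05 in TLX1 DN2 pool 4 (529, others 402 to 421). *Mybbp1a* was at 10.5 in control DN3 pool 4 (1447, others 1733 to 1786) and *Polr1b* at 6.55 in control DN3 pool 3 (94.0, others 88.4 to 89.1). Of the 6 arrays, 4 belong to control pool 3 or TLX1 pool 2. The count of 6 is near the chance rate, and no pattern over pools was tested.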

How the results depend on the processing

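At DN2 against DN1, the number of the 38 genes called higher was 26 to 37 over all settings (26 to 35 without 1 pool), and all 31 were also called under quantile normalization and under centring of each array on its median. Centring moved the median of all probe sets by 0.34 at DN2 against DN1, -0.15 at DN3 against DN2 and 0.19 at DN3 against DN1, and the median of the 38 was then 0.80, -0.34 and 0.46. With the median of all probe sets of a gene, 2 were lower at DN2 than at DN1 (*Bop1* -0.33, *Ddx21* -0.34). The number lower at DN3 against DN2, 5, was 3 under quantile normalization and with no filter, 11 under centring, 10 without control pool 3 and TLX1 pool 2, 24 with array weights and 3 to 16 without 1 pool. Of all 27022 probe sets, 1099 were lower in the main fit, 1125 under quantile normalization, 2737 under centring and 3391 with array weights. The number lower at DN3 against DN1, 2, was 0 under centring and with the RNA index as a covariate, 1 with no filter and with the pool as a random block, and 0 to 2 without 1 pool. For *Myc*, TLX1 against control was -0.28 to 0.069 at DN1, -0.087 to 0.20 at DN2 and -0.36 to 0.028 at DN3 without 1 pool, and turned sign at DN1 without control pool 3, at DN2 without TLX1 pool 4 (-0.0051) or control pool 2 (-0.087), and at DN3 without control pool 4. Correlations between the genotypes for same-numbered arrays were 0.13 to 0.19 for pools 1, -0.34 to 0.036 for pools 2 and 3 and 0.37 to 0.48 for pools 4. Whether same-numbered pools share a factor was not tested. With the replicate number as a block 0 of the 38 were called at each stage. Of the settings tried for single genes, 194 at stage changes and 248 at TLX1 against control kept direction and call status. The 248 had no call to keep, nor did *Myc* at DN3 against DN2. A further 4 at TLX1 against control turned sign, and 22 at stage changes lost the call. The 22 were all *Nop10* or *Mybbp1a* at DN3 against DN2, and the causes were not tested. The limits are 4 pools a genotype, the mixed cells of DN1 and the mean signals of *Rrp12* (85.2) and *Polr1b* (102), the lowest of the 38.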
